A study of Mus musculus with 12 samples.

Results

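Regions of ESRP1 contact that lay outside every annotated gene of the mouse genome were examined in epidermis. A region was built by joining called single-nucleotide positions of 1 strand with steps of up to 10 nt in each of 3 deposited lists, and then merging the lists within 10 nt. It was kept when it held sites of all 3 lists and its middle lay in no gene span of any biotype on GRCm38.p6. These criteria gave 1840 regions out of 9649 with sites of all 3 lists and 45738 union regions in all. Of the 7715 union regions outside spans, 23.8% had sites of all 3 lists, against 19.3% of 34176 in protein-coding spans and 21.1% of all union regions. The regions were chosen by presence in all 3 lists and by position, so these shares are descriptions and nothing is read from them. The count depends on which lists are required: without list 3, 3121 regions outside spans had sites of both other lists.

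The sites came from eCLIP of FLAG immunoprecipitates and their size-matched inputs, 6 libraries of each. All animals carried a FLAG tag on both alleles of endogenous Esrp1 (genotype Esrp1FLAG/FLAG), and epidermis was taken from the back skin of pups on postnatal day 1. Membrane between 75 and 140 kDa was used for both library types. List 1 was called on biological replicates 1 and 2, list 2 on replicates 3 and 4, and list 3 on replicates 5 and 6, each together with input. No untagged animals are among the samples, so background of the antibody could not be set beside the regions. The lists give no read counts, and the depth behind each region is unknown. As a check of the tissue, 10, 10 and 9 of 12 keratinocyte marker genes held a site in lists 1, 2 and 3, beside 32.8, 29.8 and 26.4% of all 21887 protein-coding genes. Sites also lay in 3, 2 and 1 of 5 melanocyte genes, 3, 3 and 2 of 6 dermal fibroblast genes, 1 of 4 immune genes in each list, and 0 of 5 endothelial and muscle genes. The part of other cell types in the outside regions was not tested.

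ESRP1 is an epithelial RNA-binding protein best known for switching exons of epithelial transcripts, and it binds GU-rich RNA with UGG-containing motifs. In eCLIP, ultraviolet light joins protein and RNA, and reverse transcription tends to stop at the joined base. RNA outside annotated genes can come from transcripts that run past an annotated end, from starts upstream of the annotated one, or from unannotated transcripts and copies of genes. The annotation used here gives only the outer limits of genes, so the middle of a region outside a span is outside every annotated exon and intron.

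Sequence could be read for 15 of the regions, those that lay wholly within a RefSeq window of 250 bases before to 50 bases after an annotated transcript start (GRCm38.p6). The sequences of 7 are shown because they carry the base composition under the sites. Each is 30 bases around the middle of a region, 5′ to 3′ on the strand of the region, and capitals mark bases called as sites in any of the lists.
Gm52317, chromosome 17, 33867064 to 33867093, plus strand: gtggtGgtggtggtGGtgGTGGtgGtggtg
Msl2, chromosome 9, 101074013 to 101074042, plus strand: ggggtggGggtggGgAgGGgGGGtgagagc
Eif2s1, chromosome 12, 78862049 to 78862078, plus strand: cgcatgcgcgcTGGgTTGGgcgaagcgcac
Ilrun, chromosome 17, 27820552 to 27820581, minus strand: gggggtgggaggGGGGGGagcgcgagcccc
Ddit4, chromosome 10, 59951797 to 59951826, minus strand: caggcaGGGGggaGgtgcgagagGGttcga
Taf1c, chromosome 8, 119605249 to 119605278, minus strand: tcggttagatgatcTGGgggcgggacttcc
Pde12, chromosome 14, 26669842 to 26669871, minus strand: aacaaaacttcgggTTctggtagctccctc

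The bases under these sites were nearly all G or T. Of 65 site bases in the 15 regions, 55 were G (84.6%), 9 were T (13.8%), 1 was A and 0 were C. In 97 regions that lay in a gene span and in such a window on its strand, 423 of 528 site bases were G (80.1%) and 95 were T. The motif TGG, searched on the strand of the region, was present in 12 of the 15 stretches of 30 bases, and G made up a median of 56.7% of their bases. Among 262536 stretches of 30 bases tiled over the upstream parts of all RefSeq windows, on the gene strand, 43.1% held TGG and 26.6% of bases were G. These windows differ from the 15 in G content, and the regions were not matched for it, so the shares are descriptions.

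All 15 regions lay on the strand of a gene with a window there, and the Bola2 region also lay in the window of Slx1b. Of the regions in a span and wholly in such a window, 97 lay on the strand of a gene with a window there and 53 did not. Upstream distances here are from the middle of a region. The middle closest to its start among the 7 shown was that of the region of Gm52317, a gene with no role given here, 7 nt upstream. That region, 33867069 to 33867088, reached past the start. The Eif2s1 region, next to the gene of the alpha subunit of a translation initiation factor, lay 9 nt upstream with top scores of 47.4, 10.3 and 40.1 in lists 1, 2 and 3. Ddit4, which encodes a stress-induced inhibitor of growth signalling, had its region 41 nt upstream, with top scores of 23.1, 6.02 and 34.5. The region before Taf1c, which encodes a subunit of a transcription factor of ribosomal RNA genes, lay 57 nt upstream and scored 140, 59.2 and 86.9. The scores are the authors' own values on a scale they did not state, and they are compared only within a list.

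Outside regions were denser close to genes, though most lay far from any. The median distance from the middle of a region to the nearest span was 13587.5 nt, with quartiles at 3455.25 and 42119.8 nt and a maximum of 548026 nt. Within 1000 nt of a span lay 233 regions (12.7%, 95% exact binomial interval 11.2 to 14.3), within 10000 nt 808 (43.9%, 41.6 to 46.2), and within 100000 nt 1666 (90.5%). The nearest gene was protein-coding for 36.6% of regions, a pseudogene for 34.6% and an lncRNA for 22.4%. To the nearest protein-coding span the median was 43228.5 nt, with 5.49% of regions within 1000 nt and 25.8% within 10000 nt. Per megabase of sequence between spans there were 3.62 regions in the first 1000 nt from a gene, 1.61 at 1000 to 5000 nt, 1.48 at 5000 to 10000 nt, 1.20 at 10000 to 50000 nt and 0.802 beyond. The median of the mean score percentile was 72.5, 75.1, 73.6, 75.2 and 76.4 at the same distances. The intervals of shares cover counting error only. The length between spans includes assembly gaps, which were not subtracted, and 87.6 megabases of chromosome Y, where only 13 regions lay. Their part in the fall of density with distance was not tested.

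The span edge is the limit that chose the regions. The member whose middle was closest to an edge, 2 nt beyond Mfap1b, had 8, 1 and 4 sites and top scores of 142, 37.8 and 123 in lists 1, 2 and 3. Up to 100 nt beyond an edge lay 56 members with a median of the mean score percentile of 73.0, and up to 100 nt inside lay 632 other regions with a median of 77.9. Only 5 of the 1840 regions, the Mfap1b one among them, touched a span with any base.

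Close to genes, the position past the 3′ end on the gene's own strand was the most frequent. The strand was known for 28097 of 49943 genes, and for the nearest gene of 394 of the 808 regions within 10000 nt. Of these, 163 (41.4%, 95% exact interval 36.5 to 46.4) lay downstream on the same strand, 103 (26.1%, 21.9 to 30.8) upstream on the same strand, 66 (16.8%) downstream on the opposite strand and 62 (15.7%) upstream on the opposite strand. The share downstream on the same strand was 52.4% within 1000 nt (44 of 84), 43.6% at 1000 to 5000 nt, 32.7% at 5000 to 10000 nt and 34.6% at 10000 to 50000 nt. When each list was taken on its own, 43.1% ± 2.56 (SD, n = 3 lists) lay downstream on the same strand within 10000 nt, against 31.6% ± 2.83 at 10000 to 50000 nt. The near share was higher in each of the 3 lists (41.3, 42.0 and 46.0%, against 29.7, 30.2 and 34.8%), and the lists do not overlap between the distances.

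**Figure D1:**
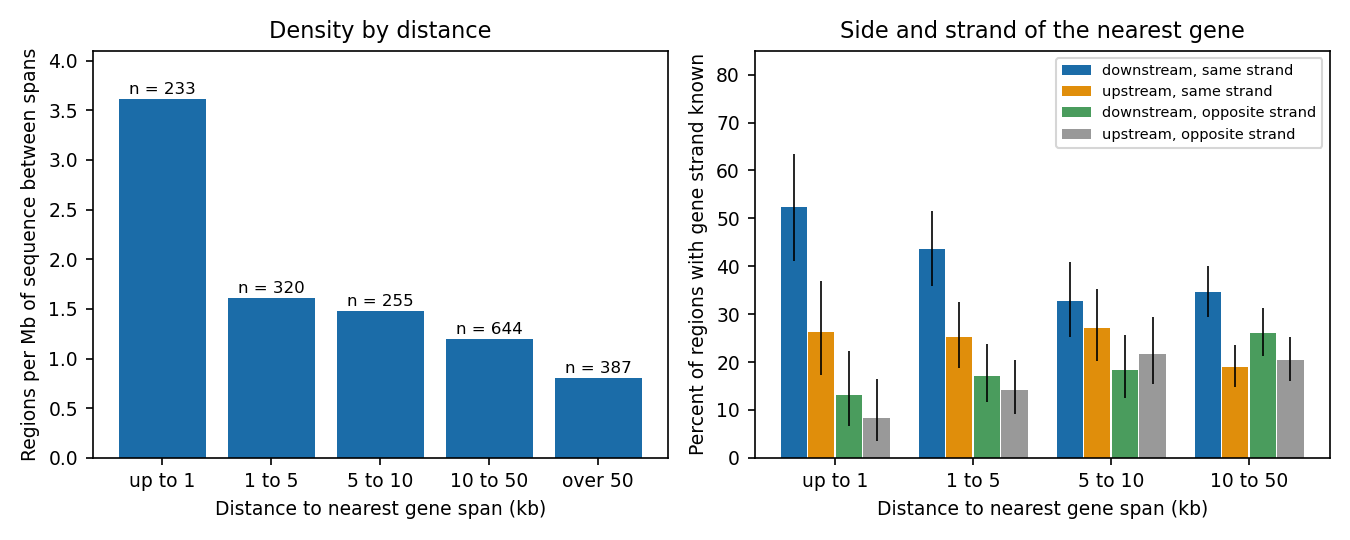
Left, regions per megabase of sequence between gene spans by distance to the nearest span in kb, with the number of regions above each bar; the density was 3.62 in the first kb and 0.802 beyond 50 kb. Right, percent of regions on each side and strand of the nearest gene of known strand, with 95% exact binomial intervals; the downstream share on the same strand was 52.4% within 1 kb.

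Some protein-coding genes flanked by an outside region also held ESRP1 regions inside the span. Of 122 protein-coding genes with an outside region downstream on the same strand within 10000 nt, 37 (30.3%, 95% exact interval 22.3 to 39.3) also held a region of all 3 lists on that strand inside the span. The same held for 24 of 67 genes (35.8%, 24.5 to 48.5) with an outside region upstream on the same strand. For 78 genes whose outside region lay on the opposite strand it was 13 (16.7%, 9.18 to 26.8), and for all 17492 protein-coding genes of known strand it was 16.5%. The differences between these shares were not tested. Expression was not measured, so its part in these shares was not tested.

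Near single genes, on any side and strand, outside regions came singly or in short series. The 808 regions within 10000 nt were spread over 720 nearest genes, of which 646 had 1 region, 63 had 2, 9 had 3, 1 had 4 and 1 had 5. Some of these genes are known for roles in skin. Spink5, which encodes the epidermal protease inhibitor whose loss causes Netherton syndrome in humans, had 3 regions on the plus strand 1565 to 2132 nt beyond its span, and its 3 regions inside the span were on the same strand. The nearest of them, on chromosome 18, 44024049 to 44024055, had top scores of 169, 72.0 and 113 in lists 1, 2 and 3. Skint1, a butyrophilin-like gene of skin and thymus needed for dendritic epidermal T cells, had 3 regions 2272 to 9753 nt past its 3′ end and 1 inside the span. The farthest of these, on chromosome 4, 112039291 to 112039292, was also the strongest, with top scores of 200, 120 and 151. Past Calm5, a calmodulin-like gene of differentiating keratinocytes, lay 2 regions 14 and 167 nt beyond the 3′ end, named after their values were seen. The first of them held 4, 3 and 3 sites with top scores of 392, 192 and 369, and the second 3, 1 and 1 sites with 307, 242 and 214.

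Scores near the other genes with several regions ranged more widely than near Spink5 and Skint1 at some genes and less widely at others. The mean score percentile was 60.6 to 96.0 at the Spink5 regions and 55.5 to 98.2 at those of Skint1. It was 48.1 to 98.1 at Gm5823, 50.9 to 95.3 at Gm42297, 67.8 to 92.3 at Gm6553 and 19.4 to 93.0 at Znrf2. At Mob1b it was 77.6 to 82.1, at Spopl 40.7 to 72.4 and at Teddm3 43.5 to 69.7. Mob1b, a kinase activator of Hippo signalling, had 3 regions 726 to 3213 nt downstream on its strand, and Znrf2, a ubiquitin ligase gene, had 3 at 1151 to 7990 nt. The lowest Znrf2 score was 0.130 in list 1 at the region 1151 nt away, where lists 2 and 3 gave 15.5 and 2.26. Teddm3 had 3 regions 119 to 1382 nt downstream on its strand. The ubiquitin adaptor gene Spopl, whose strand was not in the tables used, had 2 regions on the plus strand and 1 on the minus strand at 673 to 6510 nt. The lncRNA Gm42297 and the pseudogenes Gm5823 and Gm6553 had 3, 4 and 3 regions. None of Teddm3, Spopl, Gm42297, Gm5823 and Gm6553 held a region of all 3 lists inside the span.

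Away from such series, outside regions mostly stood alone. Of 1840, 1162 (63.2%, 95% exact interval 60.9 to 65.4) had no other site of any list within 1000 nt on the strand, against 2286 of 6588 regions in protein-coding spans (34.7%, 33.5 to 35.9). Counted within each list, 70.7, 75.7 and 71.4% of outside regions were alone in lists 1, 2 and 3, against 49.6, 58.4 and 47.6% of protein-coding regions. The difference was 20.7 ± 3.30 percentage points (SD, n = 3 lists; exact sign-flip permutation p = 0.25, two-sided, the smallest that 3 lists allow). The direction was the same in 3 of 3 lists and the values of outside and protein-coding regions did not overlap. Lone outside regions had a median of the mean score percentile of 78.4, against 68.4 for the other outside regions; in protein-coding spans the medians were 73.9 and 69.2.

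Outside regions held more sites than regions in protein-coding spans in each of the 3 lists. They averaged 4.29, 2.64 and 3.84 sites in lists 1, 2 and 3, against 3.70, 1.95 and 3.14 in protein-coding spans, a difference of 0.662 ± 0.0640 (SD, n = 3 lists; exact sign-flip permutation p = 0.25). A single site made up 11.6, 25.8 and 11.7% of outside regions, against 14.0, 44.3 and 18.2% of protein-coding regions (difference of -9.14 ± 8.42 percentage points, n = 3 lists; exact sign-flip permutation p = 0.25). The median length was 8 nt outside and 9 nt in protein-coding spans. With 3 lists none of these differences can reach a p below 0.25.

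Scores of outside regions were at or somewhat above those of protein-coding regions. The median percentile of the highest score was 80.2, 80.6 and 72.6 outside spans in lists 1, 2 and 3, against 76.4, 74.3 and 72.5 in protein-coding spans. The difference of 3.43 ± 3.10 points (SD, n = 3 lists; exact sign-flip permutation p = 0.25) was close to the spread between lists, and list 3 showed 0.162. Among outside regions, 2.72, 2.83 and 2.39% lay in the highest 1% of a list by score, against 2.03, 1.61 and 1.61% of protein-coding regions. Scores of the 1840 regions ranked alike in the lists, with Spearman correlations across regions of 0.692 between lists 1 and 2, 0.727 between lists 1 and 3 and 0.635 between lists 2 and 3. Neighbouring regions and copies are not independent, so these correlations are descriptions.

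**Figure D2:**
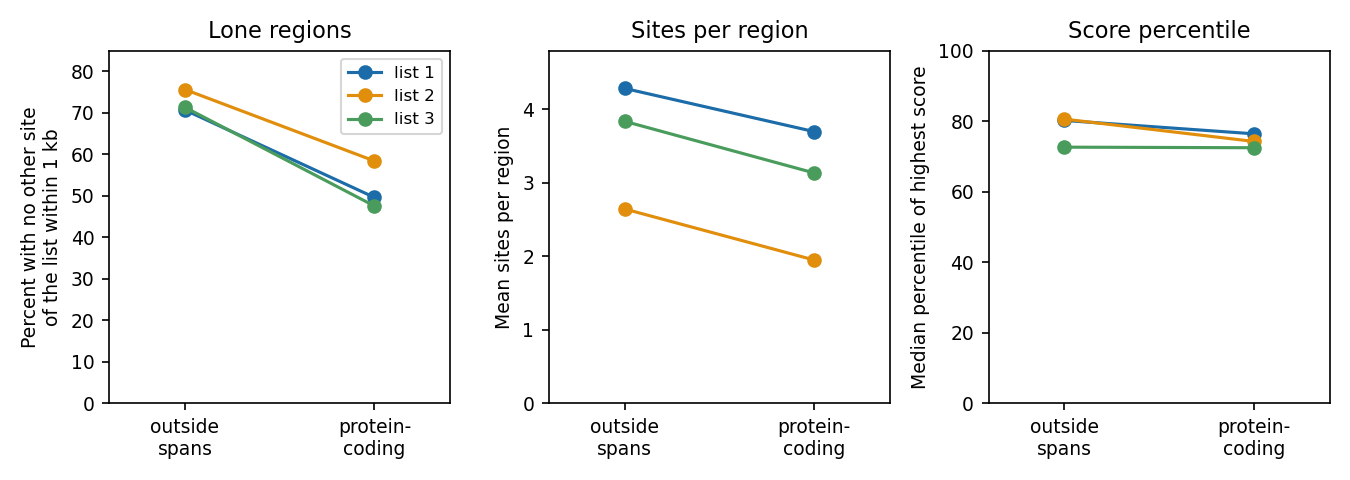
Each line is 1 of the 3 lists, with regions outside spans at the left and regions in protein-coding spans at the right. The share of lone regions, the mean sites per region and the median score percentile are shown; the first was 70.7 to 75.7% outside, against 47.6 to 58.4% in protein-coding spans.

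Several of the strongest outside regions repeated the nucleotide pattern of another region elsewhere in the genome. The region with the highest mean score percentile, on chromosome 8, 42957946 to 42957956, minus strand, held 9, 6 and 8 sites with top scores of 594, 282 and 375 in lists 1, 2 and 3. The third, on chromosome 3, 128930771 to 128930781, plus strand, held the same numbers of sites at the same 23 list positions, with top scores of 541, 275 and 387. Both also shared all 23 positions, counted once per list, with a region inside Wnt2b, which encodes a secreted signalling protein. The highest scores there were 493, 288 and 355. Over those positions the ratio of Wnt2b scores ran from 0.772 to 1.87 to chromosome 8 and from 0.599 to 1.83 to chromosome 3. The second, on chromosome 6, 60885295 to 60885305, matched them at 17 positions of lists 1 and 3 but held 7 sites in list 2, and scored 528, 301 and 359. No other site of any list lay within 1000 nt on the strand of the chromosome 8, 3 and 6 regions.

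**Figure D3:**
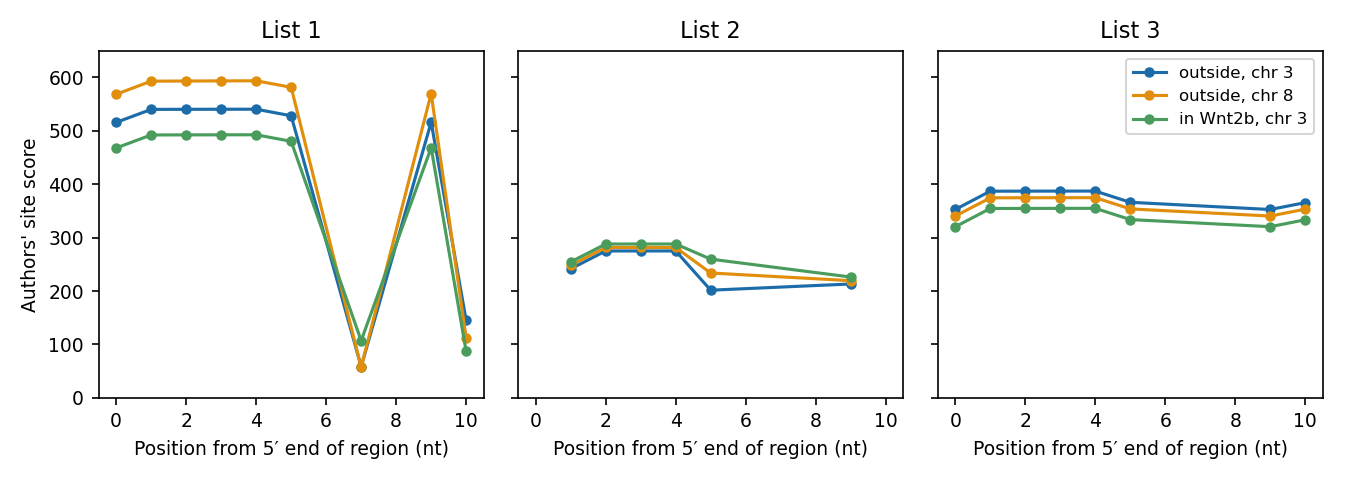
Authors' site score at each called position of 3 regions, counted in nt from the 5′ end of the region, in lists 1, 2 and 3. The outside regions on chromosomes 3 and 8 and the region in Wnt2b have sites at the same positions in each list, 9, 6 and 8 of them.

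Other lone regions of high score shared positions too, with scores close to each other in 1 case and far apart in others. The fifth, on chromosome 13, 60263073 to 60263080, had top scores of 446, 264 and 354 and shared all 17 list positions with a region inside Atrn, the gene of the membrane protein attractin, which scored 478, 252 and 304. The ratio of Atrn to chromosome 13 scores ran from 0.833 to 1.08 over those positions. The tenth, on chromosome 1, 7417241 to 7417248, shared 12 positions of lists 1 and 3 with both of them, with scores that differed by up to 91.4-fold from chromosome 13 and up to 98.1-fold from Atrn. The ninth, on chromosome X, 41225879 to 41225899, shared 14 positions of lists 2 and 3 with a region in Smpx, a striated muscle gene, at score ratios of Smpx to chromosome X, 41225879, of 0.887 to 23.6. The eighth, on chromosome 14, 68865903 to 68865911, shared 14 positions of lists 2 and 3 with a region in Otog, a gene of the inner ear matrix, at ratios of Otog to chromosome 14 of 0.654 to 4.09. Sequence of these places was not analysed here, and the part of reads with several alignments was not tested.

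The other 3 of the 10 strongest regions had fewer than 4 sites in each list, too few for the search for repeated patterns. On chromosome 1, 112644336 to 112644337, a region of 2 sites in each list scored 418, 252 and 540, and it lay 176290 nt from the nearest gene. On chromosome 15, 103375205 to 103375207, a region on the minus strand scored 457, 273 and 306 at 8415 nt upstream of Itga5, which encodes the alpha subunit of the fibronectin receptor, on its strand. On chromosome 2, 24284472 to 24284490, a region scored 435, 244 and 355 at 2049 nt past the 3′ end of Il1f5, an interleukin receptor antagonist of the epidermis. The Il1f5 region was the only 1 of the 10 with another site within 1000 nt on its strand.

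Patterns that recurred within a list were more frequent outside genes than in protein-coding spans, and most frequent in spans of other biotypes. Among outside regions with 4 or more sites in a list, 176 of 1206 (14.6%, 95% exact interval 12.6 to 16.7) had another region with the same offsets and the higher of each pair of scores at most 25% above the lower, against 315 of 3605 protein-coding regions (8.74%, 7.84 to 9.71). By list the shares were 7.86, 10.9 and 11.8% outside spans, against 6.10, 7.84 and 7.29% in protein-coding spans, higher outside in 3 of 3 lists. The 95% exact intervals overlapped in lists 1 and 2 and not in list 3 (9.77 to 14.0% outside, against 6.28 to 8.42%). In spans of other biotypes the share was 26.5% (206 of 778), and 19.8, 26.0 and 22.9% by list. The outside shares lay between these and the protein-coding shares in each list. A raised share was thus not particular to outside regions. With scores within 1.1-fold, 68 outside regions (5.64%) had such a match, and regions of a family are not independent.

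Regions that matched in at least 2 lists, directly or through other members, formed 20 families with an outside member, of 60 families in all. These held 26 outside regions, and 11 families also had a member in a protein-coding span. With 2 outside regions each, 6 families tied for most: the Wnt2b one and 5 pairs of outside regions. A pair on chromosome 1, 171070917 to 171070924 and 171086190 to 171086197, scored 106, 243 and 160 at the first place and 93.7, 242 and 160 at the second in lists 1, 2 and 3. The pair on chromosome 12, 47782485 to 47782488, and chromosome 6, 113199131 to 113199134, scored 145 and 138 in list 1 and 114 and 116 in list 3. The pair on chromosomes 18 and X, and that on chromosomes 12 and 13, had lower scores, with 54.7 to 56.4 in list 1. The last pair, on chromosome 15, 34196063 to 34196073, and chromosome 8, 82508117 to 82508127, scored 25.1 at both places in list 1, 84.2 and 83.6 in list 2, and 53.5 and 51.6 in list 3.

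Of the 20 families, the 2 with most regions in all had members in Hrnr, which encodes the repeat-rich cornified layer protein hornerin. The first joined the outside region on chromosome 13, 112509175 to 112509178, to 6 others, among them 2 in Hrnr, 1 in the gap junction gene Gja1, 2 in tRNA genes and 1 in the pseudogene Eef2-ps2. The outside region itself matched only the tRNA regions in 2 lists, lists 2 and 3. With the Hrnr, Gja1 and Eef2-ps2 regions it matched in list 3 only, and other members of the family linked them. The outside region scored 182, 113 and 145 in lists 1, 2 and 3, against 130, 53.6 and 138 at the first Hrnr region and 132, 49.6 and 138 at the second. In list 2 the pattern was not shared with Hrnr, where each region held 1 site against 4 at the outside region. The next joined the outside region on chromosome 2, 142945344 to 142945347, to 3 in Hrnr. It scored 151, 205 and 198, against 127 to 136 in list 1, 58.9 to 91.2 in list 2 and 168 to 171 in list 3 at the Hrnr regions. Here too list 2 differed, with 4 sites at the outside region against 2, 1 and 1 in Hrnr. The sites of each Hrnr region stood among 10 to 17 others within 1000 nt, while both outside regions had 0 there. All of these patterns had 4 or 5 sites in list 1. At both outside regions the sites were 4 neighbouring bases in each list.

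Along chromosomes, most outside regions had no other outside region near them on the strand, and those that did mostly had it close by. Of 1840, 325 (17.7%, 95% exact interval 15.9 to 19.5) had another outside region on the same strand within 10000 nt, and 267 had one within 1000 nt. In protein-coding spans 2889 of 6588 regions (43.9%, 42.6 to 45.1) had a neighbour of their kind within 10000 nt. The sets differ in size and were not matched for density along the genome, so the shares are descriptions. The median step between neighbours on a strand was 169 nt over 182 steps. Runs with steps up to 10000 nt held 2 regions in 117 cases, 3 in 16, 4 in 8, 5 in 1 and 6 in 1, and 1515 regions (82.3%) were in no run. The plus strand held 948 regions and the minus strand 892. The neighbour share depended on the lists: without list 2 it was 29.6%.

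Per megabase between spans, chromosomes other than Y stayed within a narrow range. The median was 1.33 regions per megabase over 21 chromosomes, with 1.63 on chromosome 18 and 0.941 on chromosome 6. Chromosome Y had 13 regions, which was 0.148 per megabase. The length between spans includes assembly gaps, which were not subtracted.

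**Figure D4:**
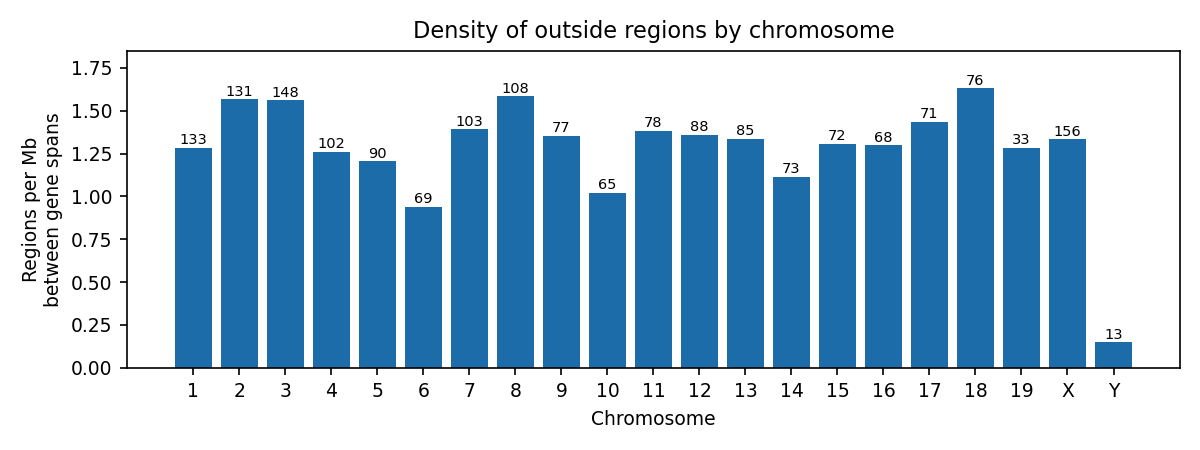
Regions outside spans per megabase of sequence between gene spans, by chromosome, with the number of regions above each bar. Chromosome Y, with 13 regions, stands at 0.148, and the other 20 chromosomes lie between 0.941 and 1.63.

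The densest 10 kb window held a series of equally spaced regions. It lay on chromosome 15, 91907072 to 91909525, with 6 regions on the minus strand whose starts were 488, 491, 488, 489 and 489 nt apart. Each held 6 sites in list 1, 4 to 6 in list 2 and 7 to 9 in list 3. Their highest scores were 228 to 421 in list 1, 108 to 186 in list 2 and 195 to 199 in list 3, and the mean score percentile of each was 98.6 or more. The nearest gene, Smgc, a salivary mucin-like gene, ended 45640 nt away and lay on the other strand.

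The second window held 5 regions on chromosome X, 115012418 to 115018952, with 4 on the minus strand and 1 on the plus strand, 22450 nt from the pseudogene Gm5943. Its strongest region scored 215, 182 and 99.7 in lists 1, 2 and 3. A window on chromosome 2, 24181674 to 24184438, held 4 plus-strand regions between the pseudogene Gm13410 and Il1f9, an epidermal interleukin gene, and the closest to Il1f9 lay 2044 nt upstream on its strand. A window on chromosome 4, 112037589 to 112044020, held 4 plus-strand regions downstream of Skint1, and 2 of the 4 are among its 3 regions given above.

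The other 6 windows held 4 regions each, all on a single strand within each window. That on chromosome 18 lay within 806 nt of the pseudogene Gm5823, in a span of 684 nt, with top scores of 182, 116 and 163. The window on chromosome 13, near Gm6129, held its 4 regions within 355 nt. On chromosome 3, near Depdc1a, 2 pairs of regions lay 8566 nt apart, and within each pair the steps were 26 nt. The rest lay on chromosome 12 near Gm25438 and near Gm5435, and on chromosome 11 near Gm38957. The number in a window also depended on the lists: without list 2 the densest window held 14 regions, on chromosome Y, 90786979 to 90791837, 1851 nt from Gm33272, and without list 3 it held 12, also on Y, 90825966 to 90828443. All regions of each of these Y windows lay on a single strand.

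**Figure D5:**
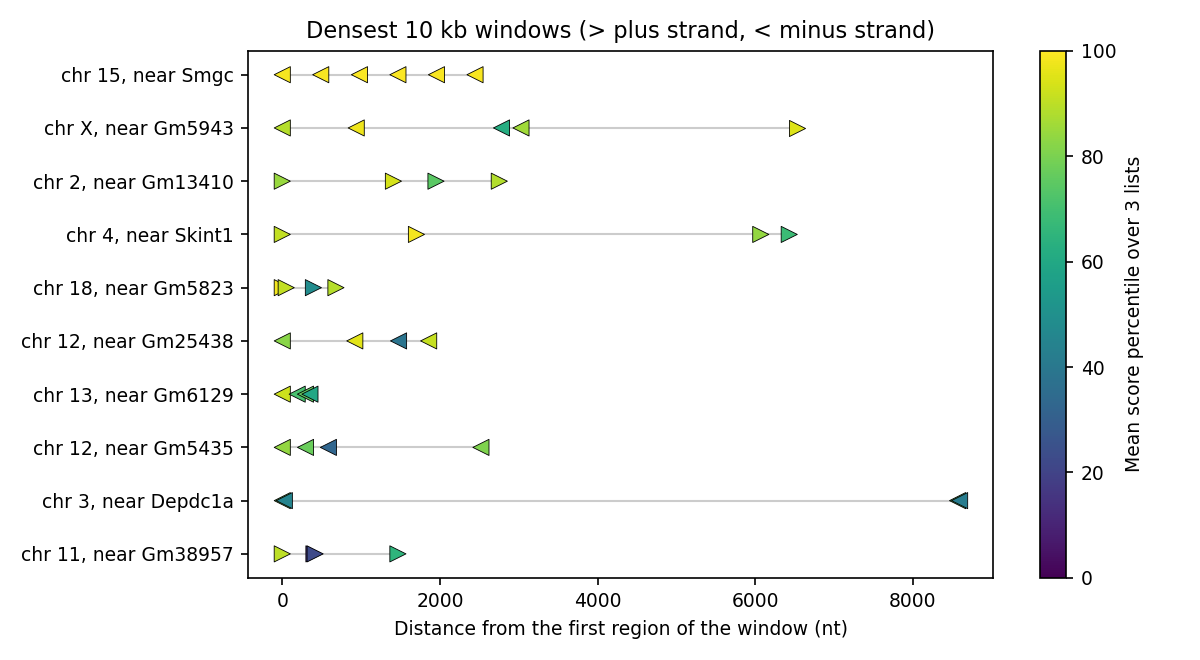
Position of each region in the 10 densest windows, in nt from the first region of the window; triangles point in the direction of the strand and colour gives the mean score percentile over 3 lists. The window near Smgc has 6 regions with steps of 488 to 491 nt.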

How the data were processed

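The deposited lists hold 1 site per line with a score whose scale is not stated; per the file headers each was called with input by the authors on 2 replicates. The lists hold 73602, 40014 and 53864 sites. Tools credited to the submitters' processing notes are cutadapt 1.16, HISAT2 2.1.0 and HOMER, with GRCm38 and mm10 as builds; their roles, the site caller and the treatment of reads with several alignments are not given in the sources used. Only lists pooled over 2 replicates were used, so spread is over 3 lists and no test measures single animals. Calling on pooled replicates hides the spread within a list.

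Gene spans came from 49943 RefSeq genes on GRCm38.p6, without exons. Gene strand came from the RefSeq promoter and miRNA tables. Coordinates are 1-based. Sequence on chromosome 18 was not read. The percentile of a region is the rank of its top score among the regions of its list. Protein-coding regions are those whose middle lies in at least 1 protein-coding span. Windows of 10 kb start at a region and do not share regions. Intervals are exact binomial (Clopper-Pearson, 95%). Functions were tested on simulated data. Regions, lists and windows were chosen with earlier results of these data known. Named were the 10 densest windows, the 10 regions of highest mean percentile, the 10 genes with most outside regions within 10000 nt, and the pattern families with most outside regions. Among genes with 3 regions, ties were broken by the best mean percentile, so 1 of them is not named. The rule asked for the 5 largest families; all 6 tied at 2 outside regions are named, and the 2 with most regions in all were added. A gene and a sequence that these rules reach are not reported here. The site number and score fold of the pattern search, the lone-region count and the sequence reading were chosen after the data were seen. Python 3.11.15, pandas 2.3.3, numpy 2.4.6, scipy 1.17.1 and networkx 3.6.1 were used.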

Additional observations from a re-analysis of the deposited data

How the results depend on the processing

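Of 112 alternatives, 74 were labelled the same as reported, 38 moved and 0 reversed. The label is loose for counts: 1292 and 2378 outside regions passed as the same as 1840. Differences between outside and protein-coding regions were labelled the same whenever the sign was kept, and only they could be labelled reversed. A score difference of 1.47 points, with the mean site score of a region, thus passed beside 3.43 reported. Leaving out each list in turn gave 1972 to 3121 outside regions (1840 reported), the highest without list 3. It gave a share of 16.7 to 22.8% (19.1% reported), a median distance of 11363 to 14538 nt, and 10.7 to 14.0%, 27.7 to 33.2% and 41.9 to 47.7% within 1000, 5000 and 10000 nt. The share with a neighbour was 20.2 to 29.6%, the highest without list 2, and the densest window held 7 to 14 regions. With spans extended by 1000 nt 16.7% of regions were outside. Among the 50% of sites with the highest scores the share outside was 20.2% and the neighbour share 12.2%. Joining sites within 50 nt gave a neighbour share of 12.1%, and neighbours within 1000 and 50000 nt gave 14.5 and 19.9%. With edges of protein-coding spans only, the median distance was 43228.5 nt, with 5.49, 16.4 and 25.8% within 1000, 5000 and 10000 nt. The share downstream on the gene strand was 52.4% within 1000 nt and 46.6% within 5000 nt. Repeated patterns numbered 80 (7.86%), 50 (10.9%) and 110 (11.8%) in lists 1, 2 and 3 alone, 1093 (63.3%) with 2 or more sites, 519 (34.8%) with 3 or more and 68 (5.64%) with scores within 1.1-fold, a setting chosen after the data were seen. Shorter patterns match more often by construction; for the other moves the cause was not tested. Joining within 5 nt changed no count, because merging within 10 nt joins such sites again. The lists give no depth, so sites missing from a list cannot be told apart from sites below its detection. No paired analysis was possible because each list pools 2 replicates with their inputs.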
